A study of Mus musculus with 9 samples.

Results

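The cytosolic and mitochondrial chaperones of C2C12 cells are described here: the Hsp70 and Hsp110 proteins, their DNAJA and DNAJB partners, Hsp90, mitochondrial Hsp60 and Hsp10, and the cytosolic chaperonin CCT. The members were all probe sets annotated to exactly 1 gene symbol of these families, with the chaperones of the endoplasmic reticulum Hspa5, Hspa13, Dnajb9 and Dnajb11 left out. This gave 92 of 36701 probe sets, for 39 of 15964 genes. Of the 92, 47 were on the array design U74Av2, 26 on U74Bv2 and 19 on U74Cv2.

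C2C12 myoblasts, a cell line from mouse skeletal muscle, fuse into myotubes once growth serum is withdrawn. Differentiation had lasted 5 days here, at 37 °C in DMEM with 2% horse serum, penicillin and streptomycin. Total RNA, under 1 sample identifier, was hybridised to 9 Affymetrix arrays, 3 of each design. There was 1 condition and no undifferentiated sample, so the data bear on the presence of chaperone mRNAs and on the precision of the arrays, not on change.

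Chaperones hold unfolded proteins and guide them to their native state. Hsp70 binds short greasy stretches of a client and is driven by ATP; J-domain proteins of the DNAJ families bring the clients and set off ATP hydrolysis, and Hsp110 proteins exchange the nucleotide. Hsp90 acts later, on kinases, receptors and, together with Unc45b, on muscle myosin. CCT is a closed ring of related subunits that folds actin and tubulin, and Hsp60 with its lid Hsp10 does the like in the mitochondrial matrix. In muscle, sarcomere assembly draws on these pathways for newly folded actin and myosin.

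Each signal is a MAS5 probe set intensity on a linear scale, scaled on each array to a trimmed mean between 1499.6 and 1499.72. Because probes differ in affinity, signals of different probe sets are not set against each other; each is read against the background limit of its own array, the 95th percentile of control probe sets for absent sequences. For replicates 1, 2 and 3 of U74Av2 this limit stood at 206, 280.4 and 256 signal units. U74Bv2 had limits of 498, 430.0 and 963, and U74Cv2 of 1034, 725 and 786. "Detected" means a signal over the limit on each of the 3 arrays, and a gene counts as detected with 1 such probe set or more. The distance from the limit was also tested with limma across all probe sets of a design, on log2(signal / limit), and an adjusted p below 0.05 counts as a pass. The SD of a multiple of the limit includes the movement of the limit between arrays, while the SD of log2 signal does not. Whether replicates are separate cultures is not in the labels, so p-values reflect only how far these arrays differ, which may be technical. All 13 muscle markers, Myog and Acta1 among them, were detected, against 8 of 24 markers of endothelium, blood, fat, epithelium and nerve. Of all genes, 62.0% were detected. The 8 were Pecam1, Kdr, Cd68, Lep, Epcam, Cdh1, Gfap and Nefl, and their part in the chaperone signals was not tested. Pecam1, Kdr and Cd68 did not pass the limma test (adjusted p = 0.14, 0.185 and 0.0702). With their highest probe sets, Epcam lay at 10.2, Lep at 6.33, Cdh1 at 6.11, Gfap at 3.07 and Nefl at 2.30 times the limit.

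Of the 39 chaperone genes, 37 (94.9%) were detected, against 62.0% of all genes. Genes with more probe sets have more chances to be detected, and most chaperone genes had several. Among the 13 chaperone genes with a single probe set, 11 (84.6%) were detected, against 48.0% of all such genes. Of the 26 with several probe sets, all 26 were detected, against 77.1% of all such genes. Gene shares, here and below, pool the 3 designs. All of the 13 but Hspa12b and Dnajb7 were on U74Av2, the design with the highest share over all probe sets. The 2 genes without a detected probe set were Hspa1l and Dnajb7. Counted by probe set, 62 of 92 members (67.4%) were detected, against 44.7% of all probe sets. By design, 37 of 47 members (78.7%) were detected on U74Av2, against 58.2% of all probe sets of that design. On U74Bv2 15 of 26 (57.7%) were detected, against 43.8%, and on U74Cv2 10 of 19 (52.6%), against 31.6%. These shares are a description of the arrays, with no test over the members.

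**Figure D1:**
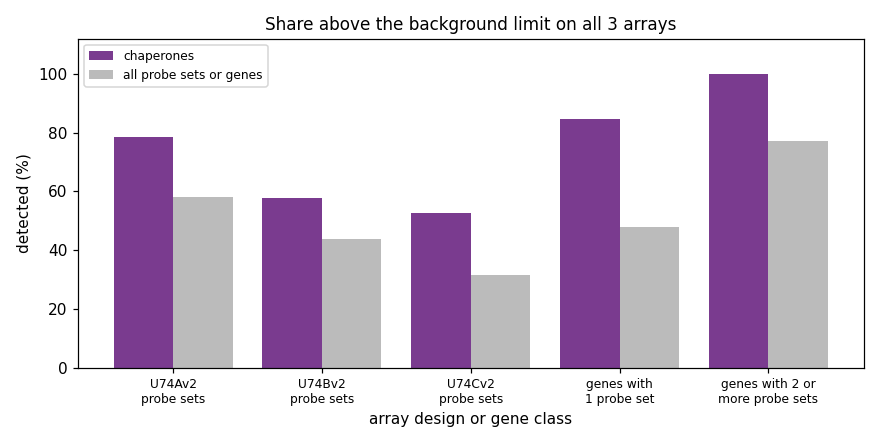
Share of chaperone probe sets and genes (purple) and of all probe sets and genes (grey) with a signal over the background limit on each of the 3 arrays, in percent. The chaperone share is the higher one in each pair, with 78.7% against 58.2% on U74Av2 and 84.6% against 48.0% among genes with 1 probe set. The gene shares pool the 3 designs.

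In the limma fits, 56 of the 92 member probe sets lay above the limit, 19 lay below it and 17 did not pass in either direction. Over all probe sets of the 3 designs, 40.1% passed as higher and 32.9% as lower. By design, 37 of 47 members passed as higher on U74Av2 (55.8% of all probe sets), with 10 of 26 for U74Bv2 (38.0%) and 9 of 19 for U74Cv2 (25.7%). As lower, 6 members passed on U74Av2 (28.7% of all probe sets), 5 for U74Bv2 (29.2%) and 8 for U74Cv2 (41.2%). The U74Bv2 share of members was thus close to the background of its design. There the fit gave every probe set the same standard error of 0.48 on the log2 scale, and the limit of replicate 3 was the highest of the 3. The members had a median log2 distance from the limit of 3.03 (U74Av2), 0.90 (U74Bv2) and 0.96 (U74Cv2), against 1.10, 0.33 and -0.60 for all probe sets. Taking for each gene the probe set with the highest mean multiple of the limit, 35 of the 39 genes passed as higher, against 57.7% of all genes under the same rule. With a single probe set 10 of 13 passed (76.9%), against 43.8% of all such genes. With several it was 25 of 26 (96.2%), against 72.9%, and these shares again pool the 3 designs. The 4 others were Hspa12b, Hspa1l, Dnajb5 and Dnajb7.

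Among the cytosolic Hsp70 proteins, the constitutive form and the stress-inducible forms were both detected. Hspa8, the constitutive Hsc70 that serves housekeeping folding and uncoats clathrin, had signals of 20429.6, 17788 and 21197 on the U74Av2 arrays of replicates 1, 2 and 3. All 3 lay far above the limit, at 81.8 ± 17.9 times it (mean ± SD, n = 3). The log2 distance was 6.33 ± 0.24 (SE; adjusted p = 7.36e-07).

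Hspa1b, one of the near-identical pair of heat-inducible Hsp70 genes, had signals of 3633, 3190.1 and 3829, or 14.7 ± 3.15 times the limit (SD, n = 3). Its partner Hspa1a gave 920.3, 709.7 and 674 with probe set 93875_at, 3.21 ± 1.09 times the limit, and replicate 1 was the highest. A second probe set for Hspa1a, 167374_f_at on U74Cv2, gave only 32.3, 89.3 and 34.9 and lay below the limit on all 3 arrays. Its suffix marks possible cross-hybridisation within a gene family. The genes are so alike that probe sets for either may read both, so the 2 signals cannot be assigned to single genes.

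The likeness extends to the promoters, which are shown because they hold the letters that heat shock factors are known to recognise. In the RefSeq promoter table of build GRCm38.p6, which holds 250 bases before and 50 bases after each gene start, Hspa1a and Hspa1b share 296 of 300 bases. The element is built of inverted GAA units, and a pair of units reads GAANNTTC or TTCNNGAA, each the same on both strands. The stretches run 5′ to 3′ on the gene's own strand, which is the minus strand of chromosome 17 at chr17:34972235-34972278 for Hspa1a and chr17:34959317-34959360 for Hspa1b. Both lie upstream of the gene start, and capitals mark the pair, which begins 104 bases before it.
Hspa1a: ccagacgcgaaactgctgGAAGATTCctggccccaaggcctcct
Hspa1b: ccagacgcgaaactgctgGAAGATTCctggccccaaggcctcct
Of the 39 genes, 35 were in the promoter table, and 12 of these (34.3%) held a pair in either form, against 17.0% of all 27025 genes. The 12 were Cct2, Cct5, Cct6a, Dnaja1, Dnaja4, Dnajb4, Dnajb6, Hspa1a, Hspa1b, Hspd1, Hspe1 and Hsph1. Hspa8, Hspa9, Hsp90aa1 and Cct4 were not in the table. A run of 3 units, GAANNTTCNNGAA or its reverse complement TTCNNGAANNTTC, each of which contains pairs, stood in 4 of the 35 (Dnajb6, Hspd1, Hspe1 and Hsph1), against 0.662% of all genes. Hspd1 and Hspe1 hold the same run, because their promoter windows overlap by 285 bases, so the same site counts for both genes. The 12 genes with a pair also include the near-identical promoters of Hspa1a and Hspa1b. A match to these letters is a description of the sequence, not a binding site.

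The mitochondrial, germ-cell and atypical Hsp70 genes were detected as well, with the exception of Hspa1l, described with the testis genes. Hspa9, the mitochondrial Hsp70 called mortalin that pulls proteins through the inner membrane, gave 8408, 7976 and 6902 with 97914_at, 32.1 ± 7.65 times the limit of U74Av2 (SD, n = 3). On U74Cv2, 170001_at for Hspa9 gave 6059.8, 2076 and 2743, with replicate 1 far above the others, and 171404_r_at gave 201, 214 and 134, below the limit on each array. Hspa2, an Hsp70 needed in male meiosis, was detected by both its probe sets, at 5.15 ± 2.44 times the limit of U74Bv2 and 1.57 ± 0.325 times that of U74Av2. Both passed the test against the limit (adjusted p = 1.13e-05 and 0.0386).

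Hspa14, which works at the ribosome, gave 879, 776 and 648 on U74Av2, 3.19 ± 0.945 times the limit (SD, n = 3), while its 3 probe sets on the other designs were not detected. The atypical family member Hspa12a was detected by 1 of 5 probe sets, 107293_at, with 2202, 2293 and 2231. Those 3 values were close to one another, yet the multiple was 4.02 ± 1.55 because the limit itself moved between arrays. Hspa12b, known from endothelial cells, gave 1345, 833 and 1471. It lay above the limit on each array, at 2.05 ± 0.594 times, but did not pass the test (adjusted p = 0.0561). It passed only with the U74Bv2 array of replicate 3 left out or with the 90th percentile of the controls as the limit (adjusted p = 0.0166 and 0.00215).

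The Hsp110 proteins are large relatives of Hsp70 that act as its nucleotide exchange factors. All 3 genes were detected by every probe set they had, 5 for Hspa4, 4 for Hspa4l and 1 for Hsph1. Hsph1 gave 5294, 5207 and 5010.1, 21.3 ± 3.88 times the limit, with a spread between arrays of 0.041 (SD of log2 signal). For Hspa4 the highest probe set, 96594_at, gave 4886, 5236 and 5373, 21.1 ± 2.54 times the limit, and the lowest, 100352_at, gave 323, 545 and 588, 1.93 ± 0.363 times (SD, n = 3 each). All 5 Hspa4 probe sets passed the test, with adjusted p-values between 1.71e-06 and 0.00658. Hspa4l reached 7.50 ± 1.23 times the limit on U74Av2 with 1832, 1947 and 1702, and 4.37 ± 0.277 times on U74Cv2. One of its U74Bv2 probe sets, 114595_at at 1.72 ± 0.618 times, was detected without passing the test (adjusted p = 0.18).

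**Figure D2:**
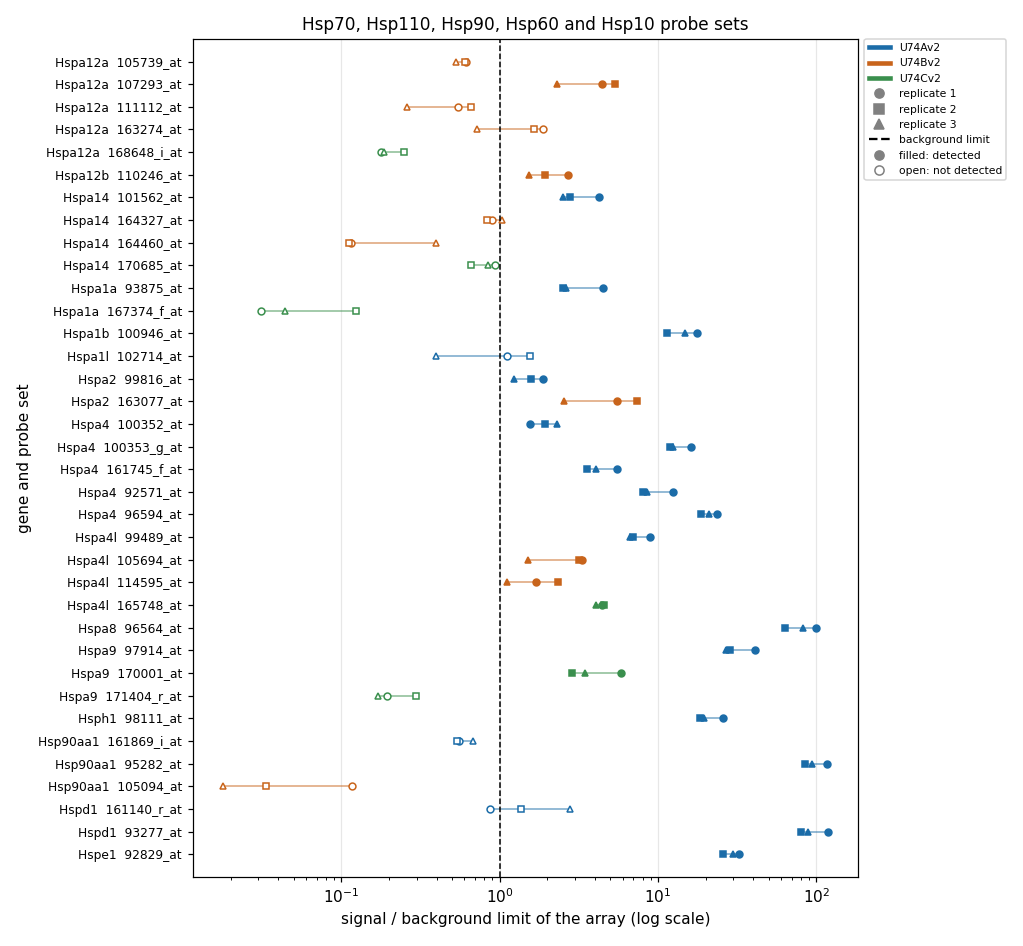
Signal divided by the background limit of the array (log axis) for each Hsp70, Hsp110, Hsp90, Hsp60 and Hsp10 probe set, with 1 point per replicate array, colours for the array design, filled points for detected probe sets and a dashed line at the limit. Hspa8, Hspd1 93277_at and Hsp90aa1 95282_at lay above the limit by a wide margin on all 3 arrays, while the other Hsp90aa1 probe sets lay below it; multiples of different probe sets do not rank the genes.

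The type A J-domain proteins, DNAJA, carry a zinc finger as well as the J domain, and all 4 genes were detected. Dnaja1 gave 4881, 4678 and 4594, 19.4 ± 3.76 times the limit, and Dnaja2 gave 1730.0, 1786 and 1791, 7.25 ± 1.05 times (SD, n = 3 each). Both are cytosolic partners of Hsc70, and their 3 arrays lay close together, with SDs of log2 signal of 0.045 and 0.028. Dnaja3, the mitochondrial J protein called Tid1, gave 3960.5, 3419 and 2885, 14.2 ± 4.37 times the limit. Dnaja4 was detected by both U74Bv2 probe sets, 163506_at with 2085, 2637 and 2996 and 109575_at with 1755, 1673 and 1415. Its probe set 167344_i_at on U74Cv2 gave 168, 151 and 705, with replicate 3 far above the others and all 3 below the limit. The highest probe sets of the 4 genes passed the test, with adjusted p-values between 2.19e-06 and 3.55e-05.

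Of the type B proteins, DNAJB, which lack the zinc finger, 10 of 11 genes were detected. Dnajb6, which keeps proteins from aggregating, sits at the Z disc and is mutated in a limb girdle muscular dystrophy, gave 6307, 6935 and 6485 with 96120_at and 4068, 3985 and 3339 with 104625_at. These lay at 26.9 ± 3.27 and 15.7 ± 3.60 times the limit of U74Av2 (SD, n = 3 each). Their SDs of log2 signal were 0.070 and 0.157, against a median of 0.154 for all detected probe sets of the design. A U74Cv2 probe set for Dnajb6, 169334_at, gave 319, 294 and 231, below the limit on each array. The Dnajb6 promoter holds a run of 3 heat shock units, in capitals here, which begins 46 bases before the gene start. The stretch is chr5:29735834-29735882, plus strand, of GRCm38.p6, upstream of the gene.
Dnajb6: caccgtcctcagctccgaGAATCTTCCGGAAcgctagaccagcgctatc

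Dnajb1, the Hdj1 partner of inducible Hsp70, gave 1566, 1749 and 1602 on U74Av2, 6.70 ± 0.789 times the limit (SD, n = 3). On U74Cv2 it gave 1300.0, 2330.4 and 1501 with 165414_at, where replicate 2 was the highest, and it was detected there without passing the test (adjusted p = 0.0536). Dnajb2, which carries ubiquitin-binding motifs, was detected by all 4 probe sets on all 3 designs, at between 4.06 and 7.54 times the limits. Only 98451_at, on U74Av2, carries no suffix for possible cross-hybridisation or other design limits. That probe set gave 2164, 1907 and 1359, with replicate 3 the lowest. Dnajb4, a close relative of Dnajb1, gave 9891, 8819.6 and 8646 with 114288_at, 16.4 ± 6.48 times the limit of U74Bv2, and 1339, 1303 and 1436 with 93853_at on U74Av2. Its probe set 116528_at gave 137, 457 and 751 and lay above the limit only on the array of replicate 2.

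Dnajb12 and Dnajb14 are anchored in the membrane of the endoplasmic reticulum with the J domain in the cytosol. Dnajb12 was detected by 2 of 3 probe sets, 115513_at with 3802, 4328 and 1879 and 116090_at with 1687, 1568 and 2397. In replicate 3 the first was at its lowest and the second at its highest, so the 2 probe sets moved apart. Another Dnajb12 probe set, 135718_at, gave 55.9, 53.8 and 133, below the limit on each array. Dnajb14 was detected by 3 of 5, the highest being 116662_at with 2098, 2265 and 2485, 4.02 ± 1.35 times the limit (SD, n = 3). On U74Cv2 168478_s_at for Dnajb14 lay at 3.85 ± 0.440 times. Dnajb5, known from heart muscle, gave 1241, 1313 and 1025 on U74Bv2 and 80.6, 85.3 and 108 on U74Av2. Only the first was detected, and it did not pass the test at 2.20 ± 1.03 times the limit (adjusted p = 0.0543). It passed without the array of replicate 3, whose limit was the highest (adjusted p = 0.00754), and with the array median or the 90th percentile of the controls as the limit (adjusted p = 0.0228 and 0.00203).

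**Figure D3:**
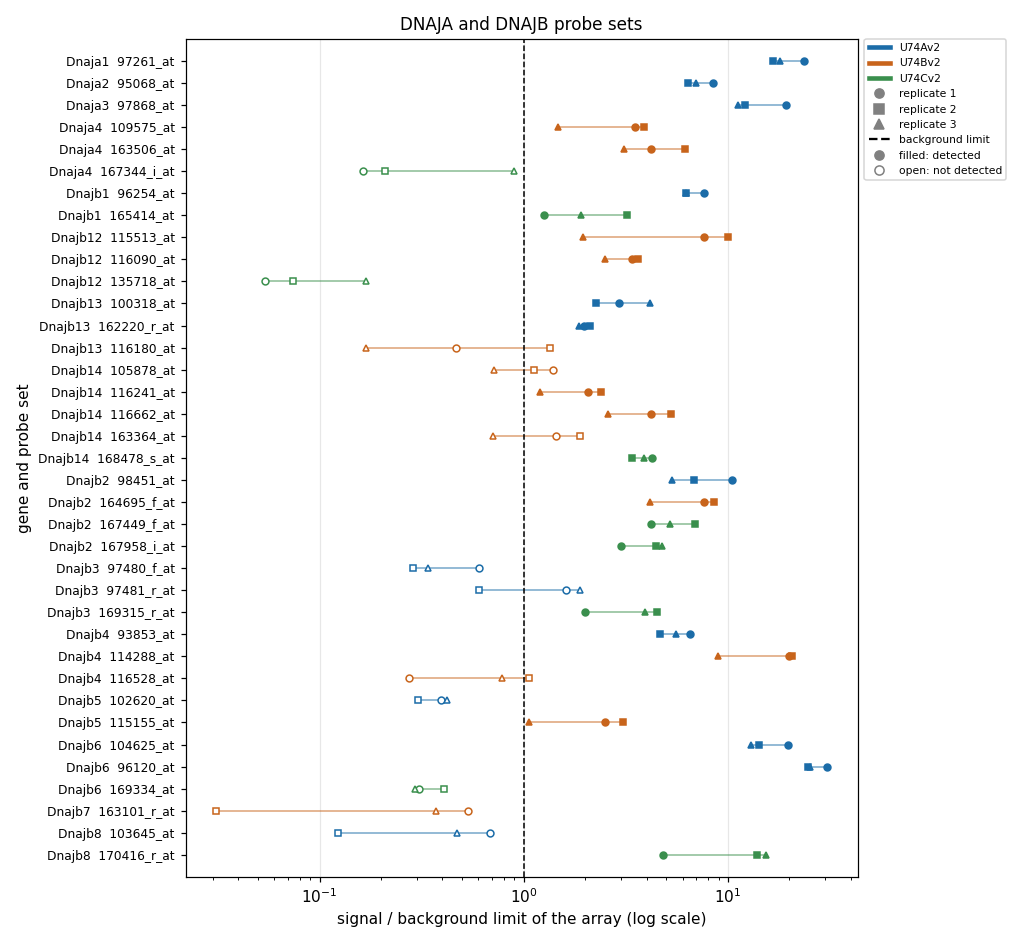
Signal divided by the background limit of the array (log axis) for each DNAJA and DNAJB probe set, with 1 point per replicate array, colours for the array design, filled points for detected probe sets and a dashed line at the limit. Dnajb2 lay above the limit with all 4 probe sets, of which only 98451_at carries no suffix. The single Dnajb7 probe set lay below the limit on each array, with replicate 2 far to the left.

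Of the cytosolic Hsp90 genes, Hsp90aa1, the stress-inducible alpha form, was the 1 named by the annotation; Hsp90ab1 was not analysed here. Its probe set 95282_at gave 23929.5, 23731 and 24076, 98.3 ± 16.3 times the limit of U74Av2 (SD, n = 3; adjusted p = 6.52e-07). The 3 signals were nearly equal, with an SD of log2 signal of 0.01, the smallest of the 92 members. The other Hsp90aa1 probe sets were not detected. On U74Av2 161869_i_at gave 114, 152 and 175, and on U74Bv2 105094_at gave 58.0, 14.4 and 17.3. Both passed the test as lower than the limit.

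Hspd1, the Hsp60 chamber of mitochondria, gave 24264, 22330.4 and 22752 with 93277_at, 95.4 ± 20.0 times the limit (SD, n = 3; adjusted p = 6.79e-07). Hspe1, its Hsp10 lid, gave 6702, 7216 and 7645, 29.4 ± 3.44 times the limit (adjusted p = 1.24e-06). Both stood clear of the limit on each array. A second Hspd1 probe set, 161140_r_at, gave 179, 380.4 and 713, with replicate 3 the highest and replicate 1 below the limit. The genes lie head to head on opposite strands, and their promoter windows overlap by 285 bases. The same 30 bases, chr1:55088053-55088082 of GRCm38.p6, are given on each gene's own strand, because they hold a run of 4 heat shock units. The run, in capitals, begins 144 bases before the Hspd1 start (minus strand) and 89 bases before the Hspe1 start (plus strand).
Hspd1: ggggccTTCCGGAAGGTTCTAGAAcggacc
Hspe1: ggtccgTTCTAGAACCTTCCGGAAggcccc
A run of 4 units stood in the promoters of 8 of 27025 genes (0.0296%), of which these are 2, counted for the same bases.

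CCT is built of a different gene product at each place of its ring, and every subunit is needed. All 9 genes, Tcp1 and Cct2 to Cct8 with the zeta forms Cct6a and Cct6b, were detected, and the highest probe set of each passed the test. Cct5, the epsilon subunit, gave 16973, 19160.0 and 17415, 72.9 ± 8.30 times the limit of U74Av2, and Cct4, the delta subunit, gave 14827, 13359.5 and 14417, 58.6 ± 12.4 times (SD, n = 3 each). Cct7, the eta subunit, gave 10888, 8416 and 10184, 40.9 ± 11.5 times. These 3 stood far above the limit on each array, with SDs of log2 signal of 0.092, 0.078 and 0.19. Second probe sets were also detected for Cct5, 161514_at at 8.43 ± 1.81 times, and for Cct4, 115988_at on U74Bv2 at 2.06 ± 0.947 times, the Cct4 one without passing the test (adjusted p = 0.0703).

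Cct3, the gamma subunit, was detected by all 3 of its U74Av2 probe sets, the highest being 98446_s_at with 5576, 5954 and 4911, 22.5 ± 4.12 times the limit (SD, n = 3). On U74Cv2 171548_at for Cct3 gave 359, 428 and 228, below the limit. Cct8, the theta subunit, gave 5023, 4605 and 3735, 18.5 ± 5.23 times the limit, and Cct2, the beta subunit, gave 2150.4, 1820.5 and 2048, 8.31 ± 2.00 times. For Cct6a, the ubiquitous zeta subunit, 162279_f_at, whose suffix marks possible cross-hybridisation, gave 3449, 3382 and 4634, 15.6 ± 3.16 times. The only Cct6a probe set without a suffix, 171389_at on U74Cv2, gave 1628, 1838 and 1448, 1.98 ± 0.496 times (adjusted p = 0.0335). The Cct6a probe set 160459_r_at gave 134, 58.2 and 73.1 and was not detected. Tcp1, the alpha subunit, gave 1941, 1152 and 2117 with 94218_at, 7.26 ± 2.80 times the limit, and replicate 2 was well below the others. Its other probe sets, 162443_at and 133457_at, gave 14.9, 16.5 and 11.6 and 438, 615 and 153, below the limit on each array.

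**Figure D4:**
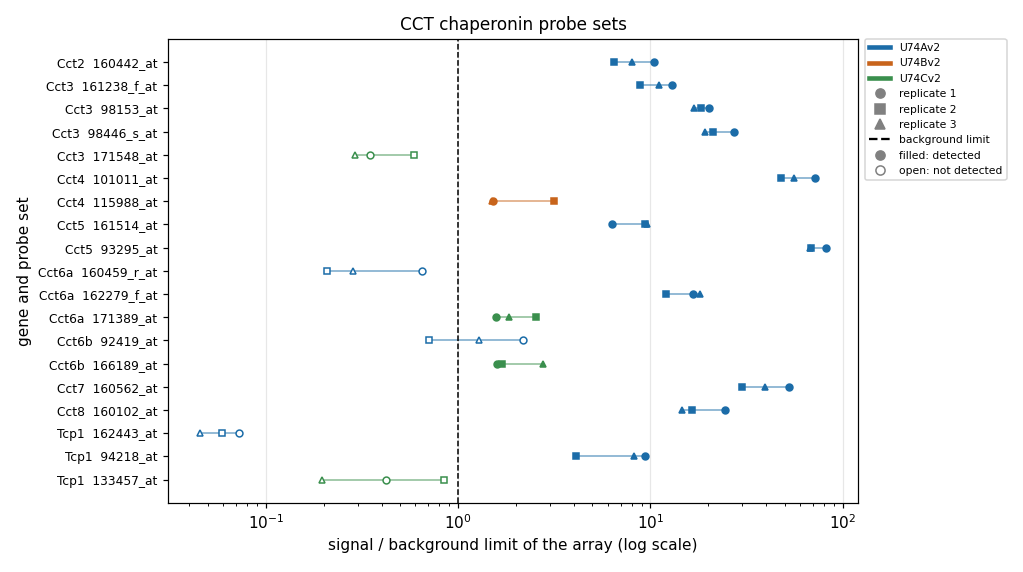
Signal divided by the background limit of the array (log axis) for each CCT probe set, with 1 point per replicate array, colours for the array design, filled points for detected probe sets and a dashed line at the limit. Each of the 9 genes had at least 1 probe set above the limit on all 3 arrays, and 2 of the 3 Tcp1 probe sets lay below it.

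Several members are known mainly from the testis: Hspa1l, Dnajb3, Dnajb7, Dnajb8, the sperm tail protein Dnajb13 and Cct6b, the testis form of the zeta subunit. They were grouped after their values had been seen, so their counts are given with no test. Of their 12 probe sets 5 (41.7%) were detected, against 57 of the 80 other member probe sets (71.3%) and 44.7% of all probe sets. Hspa2, detected by both its probe sets, was not counted among them, and 6 of the 12 carry a suffix, against 16 of the 80. Hspa1l gave 228, 435 and 101 and lay above the limit on 2 of 3 arrays, with no pass in either direction (adjusted p = 0.66). Dnajb7 gave 267, 13.4 and 357, below the limit on each array. It passed as lower, though not with replicate 2 or replicate 3 left out (adjusted p = 0.102 and 0.0729) or with the array median as the limit (adjusted p = 0.0759).

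Dnajb8 and Dnajb3 gave opposite calls on different designs. For Dnajb8, 103645_at on U74Av2 gave 140.0, 34.5 and 121, below the limit, while 170416_r_at on U74Cv2 gave 4994, 10103 and 12086, 11.4 ± 5.72 times the limit (SD, n = 3). The second had replicate 1 well below the others, and its suffix marks probes that break the design rules. For Dnajb3, a J protein of the sperm head, 169315_r_at on U74Cv2 gave 2059, 3268 and 3099.8 and was detected. Neither of its U74Av2 probe sets was detected, with 124, 80.2 and 87.6 for 97480_f_at and 333, 169 and 486 for 97481_r_at. Dnajb13 was detected by 2 of 3 probe sets, the higher giving 603, 634 and 1067, 3.12 ± 0.963 times the limit (adjusted p = 0.000612). With the array median as the limit Dnajb13 lay at 1.41 times and did not pass (adjusted p = 0.109). Cct6b gave 1657, 1226 and 2181 on U74Cv2, 2.02 ± 0.652 times the limit (adjusted p = 0.0368), and 447, 198 and 330.0 on U74Av2, where replicate 2 lay below the limit. The Cct6b pass was lost when any 1 of the arrays was left out, with adjusted p-values of 0.0664, 0.0826 and 0.305 without replicates 1, 2 and 3. It was also lost with the highest control as the limit, at 1.64 times (adjusted p = 0.270).

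Probe sets of one gene often differed in their call. Of the 26 chaperone genes with several probe sets, 19 (73.1%) had both detected and undetected ones, against 55.4% of all such genes. The 2 shares are not on one footing, because differing calls need at least 1 detected probe set. All 26 chaperone genes had one, but only 5896 of all 7645 such genes did, and in 4238 of these 5896 the calls differed. Of the 22 members with a suffix for possible cross-hybridisation or other design limits, 12 (54.5%) were detected, against 41.0% of all such probe sets. Of the 70 members without one, 50 (71.4%) were detected, against 45.9%. A gene that is not detected by one probe set is thus not shown to be silent. Of the 30 member probe sets that were not detected, 20 lay above the limit on 0 arrays and 10 on 1 or 2.

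The replicate arrays followed one another closely on U74Av2. Over the detected members the SD of log2 signal had a median of 0.13 for the 37 on U74Av2, 0.17 for the 15 on U74Bv2 and 0.39 for the 10 on U74Cv2. Over all detected probe sets of each design it was 0.15, 0.18 and 0.24. The members on U74Cv2 thus varied more than the typical detected probe set of that design, with 3 of 10 below its median. On U74Cv2 the median absolute log2 difference of the members was 0.57 between replicates 1 and 2 and 0.46 between replicates 1 and 3, against 0.31 between replicates 2 and 3. Replicate 1 there had been washed on another fluidics station and was of another chip lot, whose part in the difference was not tested. Over all detected probe sets the same differences were 0.26, 0.28 and 0.27. Among these 10, Hspa9 and Dnajb8 had the widest spreads, of 0.80 and 0.67, Hspa9 with replicate 1 the highest and Dnajb8 with replicate 1 the lowest. Without replicate 1 the median spread of the members on U74Cv2 was 0.22. On U74Bv2, where replicate 1 also had its own station, the 3 differences of the members were 0.17, 0.24 and 0.18.

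Each detected member was also set against its own mean over the 3 arrays. The median log2 deviation lay between -0.10 and 0.06 over the 9 arrays, against -0.0017 to 0.010 for all detected probe sets. The lowest value, of U74Cv2 replicate 3, rests on 10 probe sets: it was 0.037 without replicate 1, 0.029 without replicate 2, and -0.17 without suffixed probe sets. On U74Av2 24, 21 and 16 of the 37 detected members lay above their own mean in replicates 1, 2 and 3. On U74Bv2 the counts were 6, 8 and 8 of 15, and on U74Cv2 4, 5 and 4 of 10.

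**Figure D5:**
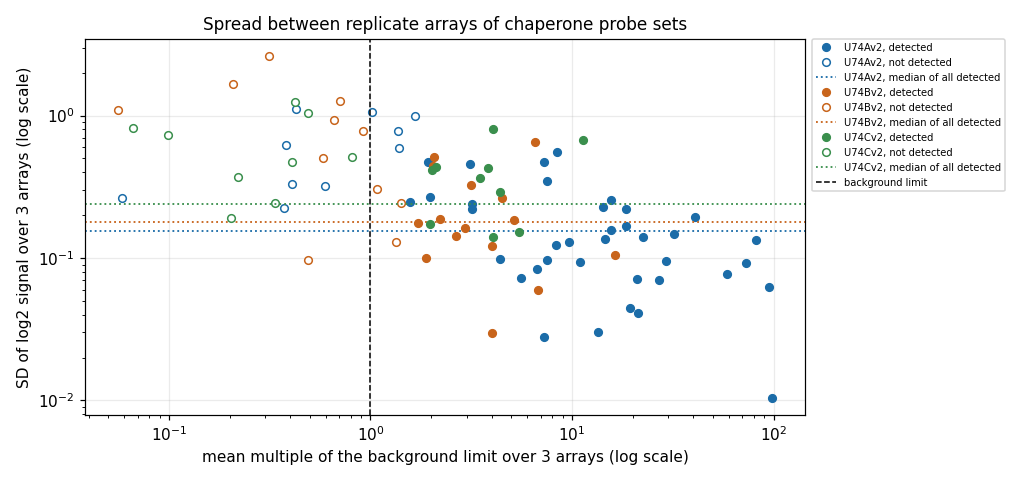
SD of log2 signal over the 3 replicate arrays against the mean multiple of the background limit for each member probe set, both axes logarithmic, with colours for the array design, filled points for detected probe sets, and dotted lines at the median SD of all detected probe sets of each design. The probe set of Hsp90aa1 at 98.3 times the limit has the smallest SD, and undetected probe sets to the left mostly lie above the dotted lines.

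Partners of these chaperones were then counted from 6 lists, in which 69 of 73 measured genes (94.5%) were detected, against 62.0% of all genes. Of the 32 with a single probe set 29 (90.6%) were detected, against 48.0% of all such genes, and of the 41 with several 40 (97.6%), against 77.1%. Values are those of the highest probe set, and St13, Sugt1, Fkbp8 and Phb2, among others, each also had an undetected one. All 14 exchange factors and co-chaperones of Hsp70 were detected. Bag5 had only suffixed probe sets, 113617_f_at and 113618_r_at. Dnlz was detected only by the suffixed 109705_s_at, while its probe set 109706_at lay below the limit on each array. Sgta, which handles tail-anchored proteins, lay at 37.2 ± 4.79 times the limit, and St13, the Hip protein that steadies Hsp70 on its client, at 34.5 ± 5.57 times (SD, n = 3 each). Of the Hsp90 co-chaperones 13 of 14 were detected. Sugt1 lay at 40.2 ± 4.19 times the limit and the immunophilin Fkbp8 at 30.0 ± 4.37 times, while Nudc gave 412, 192 and 415, with replicate 2 below the limit. Sugt1 was detected only by suffixed probe sets, 93365_s_at and 93366_r_at. Of the DNAJC proteins 15 of 17 were detected, with Dnajc8, a splicing-associated J protein, at 31.0 ± 6.87 times and Dnajc7, which carries TPR repeats, at 15.3 ± 2.99 times. Dnajc8 and Dnajc15 had only suffixed probe sets. Dnajc11 and Dnajc12 were not detected, and Dnajc11 gave 213, 202 and 949, below the limit in replicate 2. The 3 Dnajc12 probe sets lay at 0.252, 0.178 and 0.951 times their limits.

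All 14 prefoldin, phosducin-like and tubulin folding factors, which pass actin and tubulin to CCT or take tubulin from it, were detected. Pfdn1 and Tbcc were detected only by suffixed probe sets, 168956_f_at and 165192_r_at. The other probe sets of these genes lay below the limit on each array. Vbp1, a prefoldin subunit, lay at 24.9 ± 3.32 times the limit and Tbca, a tubulin cofactor, at 23.2 ± 3.95 times (SD, n = 3 each). The mitochondrial proteases and import motor genes were detected in 11 of 11 cases, with Htra2 at 26.1 ± 7.10 times and the prohibitin Phb2 at 21.7 ± 4.83 times. The Htra2 value is that of the suffixed 161446_r_at, and 104102_at for Htra2 lay at 10.1 ± 2.24 times. Of the heat shock factors and their regulators 2 of 3 were detected. Hsbp1, which binds heat shock factor, gave 2238, 1788 and 2706, 9.27 ± 2.51 times the limit, and Hsf2 gave 1312, 1401 and 1171, 2.37 ± 1.05 times the limit of U74Bv2. A U74Av2 probe set for Hsf2, 101155_at, gave 138, 65.3 and 51.7, below the limit on each array. Hsf4, the factor of the lens, gave 203, 149 and 172 and was below the limit on each array. Hsf1 was not analysed here.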

How the data were processed

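Total RNA of differentiated C2C12 cells was measured on 9 arrays, grouped by array design from the sample titles. The authors deposited 1 linear intensity per probe set. MAS5 is named in the submitters' processing notes, with version and settings not given in the sources used here. The authors' other deposited files hold instrument settings per array, from which chip type (it fitted the labelled design 9 of 9 times), wash station and chip lot were read. Scan days differed between designs but not within one, so no level is set across designs. Symbols are those of the platform annotation, used only where a probe set had 1.

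The background limit used 20, 20 and 17 control probe sets on U74Av2, U74Bv2 and U74Cv2: Dap, Lys, Phe, Thr, Trpn and reverse-strand controls, without families whose median exceeded the design's median signal. Log2(signal / limit) was fitted per design with limma 3.58.1 in R 4.3.3 (lmFit, eBayes, two-sided, against 0). Benjamini-Hochberg adjustment ran over all 12422, 12411 or 11868 non-control probe sets. The fit was also run on simulated data with noise drawn separately for each probe set. Such data cannot show how the fit behaves when the limit moves for all probe sets of an array at once. Counts and figures were made in Python 3.11.15 with pandas 2.3.3, numpy 2.4.6 and matplotlib 3.10.9. Promoter sequences are from RefSeq, build GRCm38.p6. Every member gene is named; values per array are given for the highest probe set of up to 8 genes a family and for genes with no or differing calls, and in the partner lists the 2 highest and the undetected genes are named. The members and lists were chosen with earlier results of these data known.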

Additional observations from a re-analysis of the deposited data

How the results depend on the processing

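No paired analysis was possible because the 3 designs carry different probe sets, so no chaperone probe set was measured in more than 1 group. The count of detected member probe sets, 62, lay between 50 and 66 over the alternatives, which were 3 other limits, each replicate left out, quantile normalization, no suffixed probe sets and the limma call (56). The count of detected genes, 37, lay between 35 and 38, and was 27 when most of a gene's probe sets had to be detected. Leaving out suffixed probe sets took the detected members on U74Cv2 to 5, against 10, and the members that passed as lower to 11, against 19, since fewer probe sets were counted. Without 1 replicate, the members that passed numbered 51 to 58 as higher and 13 to 17 as lower. Some genes changed side of the limit. Hspa1l lay above it on average (log2 scale) with the 90th percentile of the controls as the limit (1.26 times) and without replicate 3 (1.33 times), within a range of 0.752 to 1.33 over the replicates left out. Dnajb8 lay below it without suffixed probe sets (0.426 times). Taking the median of all probe sets of a gene put Hsp90aa1 at 0.592, Hspa12a at 0.584, Hspa14 at 0.867 and Tcp1 at 0.489 times the limit, and moved 15 other genes by more than their replicate spread without a change of side, among them Cct4 to 30.3, Cct5 to 40.7 and Cct6a to 1.98 times. Multiples of the limit depend on the limit: for the 27 genes whose highest probe set is on U74Av2 they were 2.14 to 2.29 times as large as with the array median as the limit, under which Hsp90aa1 lay at 44.0 and Hspa1a at 1.41 times. For the 9 genes on U74Bv2 the multiples were 1.15 to 1.51 times as large. For the 3 genes on U74Cv2 they were smaller, at 0.701 to 0.729 times. The number of arrays, 3 a design, limits the precision.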

Other observations

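Among the partner genes, 2 with a role in muscle were looked at after their values had been seen. Unc45b, the chaperone that folds muscle myosin together with Hsp90, gave signals of 3833, 4026 and 2752 on the U74Bv2 arrays of replicates 1, 2 and 3, 6.64 ± 3.38 times the limit (SD, n = 3), with replicate 3 the lowest. Bag3, the Hsp70 partner of chaperone-assisted autophagy at the Z disc, gave 2935, 2944 and 2614 with 96167_at on U74Av2, 11.6 ± 2.27 times the limit, and its 3 arrays lay close together. A U74Bv2 probe set for Bag3, 110509_at, gave 1761, 1224 and 833 and lay below the limit in replicate 3.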
